A study of Danio rerio with 4 samples.

Results

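Cells sense oxygen through the hypoxia-inducible factors, and 9 zebrafish genes of this pathway were described across coronary endothelial cells, which form the inner lining of heart vessels. The genes were chosen by symbol from the 20306 genes of the deposited table. They are the alpha subunit genes hif1aa, hif1ab, epas1a and epas1b, the sensor gene egln3, the degradation gene vhl, and the target genes ca9, ankrd37 and bnip3. All 9 symbols matched 1 row each, and no row carried the symbol bnip3a.

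The cells came from wild-type zebrafish whose ventricles had been cryoinjured, a freezing injury, and were collected 7 days later. All 4 libraries were sorted for the red reporter -0.8flt1:RFP, in which a fragment of the flt1 promoter marks coronary endothelium, and were then separated by the yellow reporter cxcr4a:YFP. The columns of the table are headed Regenerating (2 libraries) and Non-Regenerating (2 libraries). The labels do not state which sort gate carries which heading, and Regenerating was taken as the cxcr4a:YFP-positive gate from knowledge of these reporter lines. The age and sex of the fish are not given in the sources used here, nor is it said whether replicates came from separate fish, so the p-values reflect variation among these libraries alone, possibly only technical variation.

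Values are counts that the authors normalized between libraries. Their sum per library lay between 10481747 and 10761712, and no gene took more than 0.148% of a library. The gate gene cxcr4a read 2285 and 2242 in Regenerating compared with 585 and 590 in Non-Regenerating, and flt1 read 5496 and 5925 against 6595 and 6649. All 18 general endothelial markers were found, none was at 0, and their summed level ranged from 89629 to 97138 in Regenerating and from 104641 to 109225 in Non-Regenerating. A large part of that gap was vwf, at 4126 and 5988 against 13350 and 9620. The gene cdh5 read 11674 and 11643 against 11920 and 12629. Of the 18, 15 had a log2 fold change below 0 and 3 above, with a median of -0.09. Transcripts of other cells were also present. Of 19 cardiomyocyte markers, 17 were higher in Regenerating at an unadjusted p under 0.05 (7.62% of all genes were), none was at 0, and the sum was 63281 and 23809 in Regenerating against 10238 and 5447 in Non-Regenerating. The 15 epicardial and fibroblast markers summed to 37004 and 38156 against 50039 and 44523, with 7 lower (5.19% of all genes were) and 3 higher at that p. The 18 macrophage and monocyte markers summed to 11063 and 11677 against 10515 and 8288 (5 of 17 tested higher at that p). The 10 neutrophil markers summed to 6715 and 6432 against 4651 and 3572 (4 of 8 tested higher). The 8 lymphoid markers summed to 188 and 158 against 72 and 45 (3 of 5 tested higher). The 7 erythrocyte and thrombocyte markers summed to 968 and 816 against 1830 and 1797 (none of 5 tested at that p). Single genes made up much of some sums. The macrophage gene lgmn read 4032 and 4388 against 4088 and 4518. In the same list spi1b read 410 and 597 against 75 and 31, and ptprc 586 and 680 against 191 and 64. By contrast, mpeg1.2 read 306 and 326 against 1584 and 473. Of the 17 tested macrophage and monocyte markers, 13 had a log2 fold change above 0 and 4 below. The neutrophil gene adam8a read 3990 and 3464 against 2576 and 2068, but mpx only 1 and 3 against 9 and 4. Among the same markers lect2l read 471 and 718 against 33 and 3, and cxcr1 319 and 600 against 11 and 0. Of the 8 tested neutrophil markers, 7 had a log2 fold change above 0 and 1 below. In the erythrocyte and thrombocyte list thbs1b read 779 and 758 against 954 and 1721, but hbaa1 only 2 and 6 against 10 and 17. Markers at 0 in at least 1 Non-Regenerating library were cxcr1 of neutrophils and cd79b, pax5 and zap70 of lymphoid cells. Those at 0 in Regenerating replicate 1 were npsn of neutrophils and alas2 of erythrocytes. The lymphoid gene cd79b read 50 and 36 against 0 and 0, pax5 13 and 17 against 0 and 0, and zap70 9 and 4 against 30 and 0.

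As background, the alpha subunits of the factors HIF-1 and HIF-2 (the latter encoded by the epas1 genes) are made continuously and destroyed when oxygen is present. Prolyl hydroxylases of the EGLN family mark them with the help of oxygen, and the VHL protein, the recognition part of a ubiquitin ligase, then directs them to degradation. When oxygen is short, the alpha subunits persist, pair with the beta subunit ARNT and switch on target genes of glycolysis, vessel growth and mitochondrial turnover. This control acts mainly on the protein, which RNA counts do not measure. In human cells CXCR4 is itself a known HIF target. Many of these genes exist as pairs in zebrafish, which the letters a and b mark.

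None of the 9 genes passed adjustment over the 16928 genes tested (limma, Benjamini-Hochberg adjusted p under 0.05), where 0.00591% of all genes were called. At an unadjusted p under 0.05, 1 of the 9, ca9, was higher in Regenerating, against 7.62% of all genes, and 1, vhl, was lower, against 5.19%. For 5 of the 9 the groups had no overlap, 2 higher (ca9 and bnip3) and 3 lower (hif1ab, epas1b and vhl), where 43.2% of all genes did not overlap, 21.8% higher and 21.5% lower. The median log2 fold change, Regenerating over Non-Regenerating, was -0.13 over the 9 genes and 0.00 over all genes tested. All 9 passed the filter on low values.

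**Figure D1:**
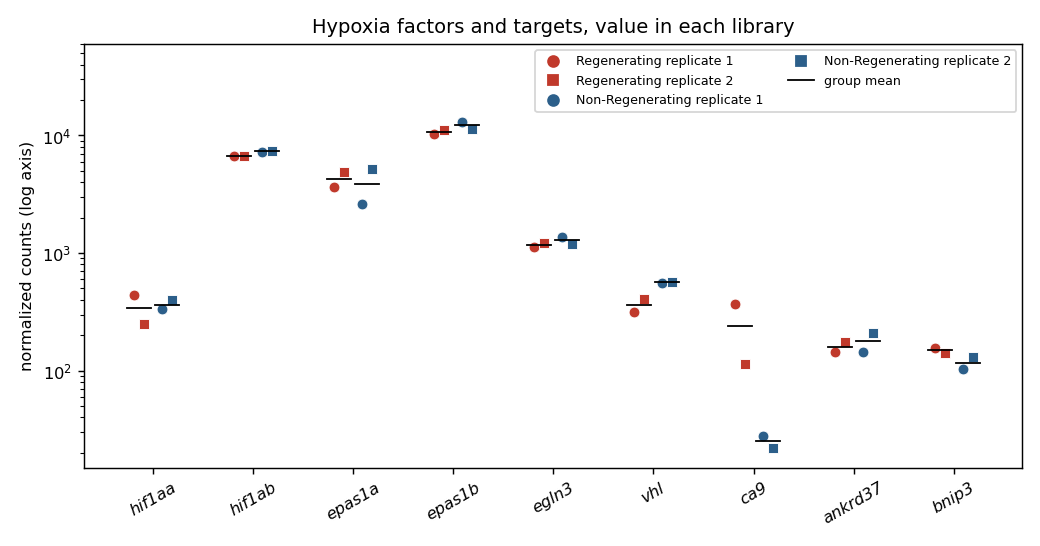
Normalized counts of the 9 hypoxia genes in each library on a log axis, with Regenerating in red, Non-Regenerating in blue, circles for replicate 1, squares for replicate 2 and black lines for group means. The groups are clearly apart for ca9 (366 and 114 against 28 and 22) and to a lesser degree for vhl (318 and 408 against 557 and 573), while the points of the other genes lie close together or overlap.

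The fitted log2 fold changes of the HIF alpha subunit genes lay between -0.18 and 0.20. The gene hif1ab (ENSDARG00000034293, chromosome 20, 20326611 to 20355577, danRer11), 1 of a pair that encode HIF-1 alpha, read 6645 and 6673 in Regenerating compared with 7259 and 7391 in Non-Regenerating. Both Regenerating libraries were thus below both Non-Regenerating libraries, by a small amount. The log2 fold change was -0.14 (SE 0.0831, 95% interval -0.35 to 0.08, limma adjusted p = 0.581). Its partner hif1aa (ENSDARG00000006181, chromosome 13, 31757331 to 31783663) read 441 and 247 against 332 and 398. The Regenerating libraries lay on either side of the Non-Regenerating ones, and the interval of the log2 fold change, -1.01 to 0.73 around -0.14, was wide.

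The epas1 genes encode HIF-2 alpha, which is known for its expression in endothelium. The gene epas1b (ENSDARG00000057671, chromosome 13, 8375612 to 8446341) read 10328 and 11072 in Regenerating compared with 12923 and 11411 in Non-Regenerating. The groups did not overlap, but the nearest libraries were close, at 11072 and 11411. Its log2 fold change was -0.18 (SE 0.0972, interval -0.43 to 0.07, limma adjusted p = 0.523). With quantile scaling, which forces the libraries to 1 distribution, it was -0.05. The gene epas1a (ENSDARG00000008697, chromosome 12, 25775734 to 25830268) read 3626 and 4890 against 2619 and 5145. Here both the lowest and the highest library were Non-Regenerating, and replicate 2 exceeded replicate 1 in both groups, 1.35-fold in Regenerating and 1.96-fold in Non-Regenerating. The log2 fold change of epas1a was 0.20 (SE 0.348, interval -0.69 to 1.09) and it turned to -0.29 when Non-Regenerating replicate 1 was left out, against 0.68 when Non-Regenerating replicate 2 was.

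Other subunits of the complex did not pass either. The beta subunit gene arnt read 339 and 547 in Regenerating compared with 236 and 309 in Non-Regenerating, with a log2 fold change of 0.67 (SE 0.319, limma adjusted p = 0.476) with no overlap between groups. The second beta subunit gene arnt2 read 689 and 645 against 758 and 683, with overlap. The additional alpha subunit gene hif1al read 3278 and 3741 against 2826 and 3000, with a log2 fold change of 0.27 (interval -0.04 to 0.58, adjusted p = 0.459). Of the 7 subunit genes tested, none had an unadjusted p under 0.05, 2 were higher and 2 lower without overlap, against 21.8% and 21.5% of all genes, and the median log2 fold change was -0.11.

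**Figure D2:**
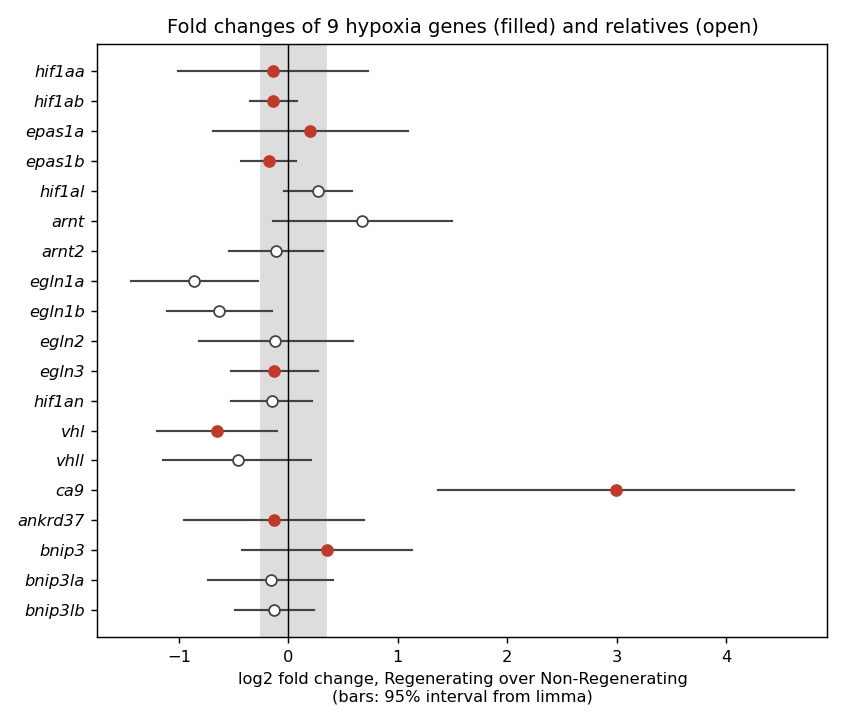
Log2 fold changes, Regenerating over Non-Regenerating, with 95% intervals from limma, for the 9 genes (filled) and their closest relatives (open). The grey band spans the 25th to 75th percentile of all genes tested (-0.249 to 0.346), and the intervals that leave out 0 are those of ca9, vhl, egln1a and egln1b.

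Of 13 tested genes in the oxygen sensing and degradation list, 3 were lower in Regenerating at an unadjusted p under 0.05. Over all genes tested 5.19% were. None passed adjustment over all genes. The gene vhl (ENSDARG00000070617, chromosome 6, 40451270 to 40455109) read 318 and 408 in Regenerating compared with 557 and 573 in Non-Regenerating. The higher Regenerating library stayed well below the lower Non-Regenerating one. Its fitted level was 1.57-fold lower, a log2 fold change of -0.65 (SE 0.215, interval -1.20 to -0.10, unadjusted p = 0.0291, limma adjusted p = 0.328). Leaving out Regenerating replicate 1 gave -0.47 with an unadjusted p of 0.134, and leaving out Regenerating replicate 2 gave -0.83. The unadjusted p was 0.0888 when Non-Regenerating replicate 1 was left out and 0.105 when Non-Regenerating replicate 2 was. The related gene vhll read 145 and 156 against 224 and 193, in the same direction and without overlap (log2 fold change -0.46, adjusted p = 0.549).

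The prolyl hydroxylase gene egln3 (ENSDARG00000032553, chromosome 17, 9912036 to 9936915), which is both a HIF sensor and, in human cells, a HIF target, read 1136 and 1209 in Regenerating compared with 1377 and 1187 in Non-Regenerating. These ranges overlapped, and the log2 fold change was -0.13 (SE 0.153, interval -0.52 to 0.27, limma adjusted p = 0.812). Its relatives egln1a and egln1b stood further apart. EGLN1 is regarded as the main oxygen sensor of the family in mammals. The gene egln1a read 211 and 203 against 349 and 406, with a log2 fold change of -0.86 (SE 0.226, unadjusted p = 0.0122, limma adjusted p = 0.244). The gene egln1b read 418 and 419 against 698 and 599, with a log2 fold change of -0.63 (SE 0.188, unadjusted p = 0.0202, limma adjusted p = 0.293). In both genes every Regenerating library was below every Non-Regenerating library. Their log2 fold changes ranged from -0.97 to -0.75 for egln1a and from -0.74 to -0.52 for egln1b when any 1 library was left out. The unadjusted p of egln1a was then 0.0538 to 0.0636 in all cases but that without Non-Regenerating replicate 1 (0.028), and that of egln1b 0.0849 to 0.0862 in all but that without Non-Regenerating replicate 2 (0.0344). The fourth family member egln2 read 1533 and 1829 against 1403 and 2357, with overlap, and hif1an, the asparagine hydroxylase that limits HIF activity, read 982 and 1030 against 1074 and 1156.

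In the whole oxygen sensing and degradation list, 12 of 13 tested genes had a log2 fold change below 0, and the median was -0.13. Unadjusted p was under 0.05 for 3 of them, vhl, egln1a and egln1b, all lower, against 5.19% of all genes, and most of the others lay close to 0. In 7 of the 13 the groups did not overlap with Regenerating lower, against 21.5% of all genes, and in none with Regenerating higher. The list holds vhl and egln3 and was chosen with earlier results of these data known, so its counts are not an independent test. The 18 general endothelial markers also lay mostly below 0, with 15 below 0, 8 lower and none higher without overlap, and a median of -0.09. At an unadjusted p under 0.05, 2 of them were lower, vwf (log2 fold change -1.19) and tek (-0.34). Those of vhl, egln1a and egln1b were -0.65, -0.86 and -0.63. The ubiquitin ligase partners of VHL showed small differences: cul2 read 1310 and 1318 against 1382 and 1350, and elocb 1053 and 1090 against 1034 and 1054. The gene eloca read 260 and 320 against 319 and 290, and rbx1 624 and 614 against 733 and 602. The summed epicardial and fibroblast markers and the summed erythrocyte and thrombocyte markers were also lower in Regenerating. However, 6 of the 15 epicardial markers and 1 of the 5 tested erythrocyte and thrombocyte markers had a log2 fold change above 0. The erythrocyte and thrombocyte sum was mostly thbs1b (779 and 758 against 954 and 1721). In Non-Regenerating replicate 1 it also held f13a1a.1, at 802 against 11 in replicate 2. The part of these markers and of the endothelial ones in the values was not tested. In bulk libraries fewer cells of a type and less RNA per cell cannot be told apart.

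**Figure D3:**
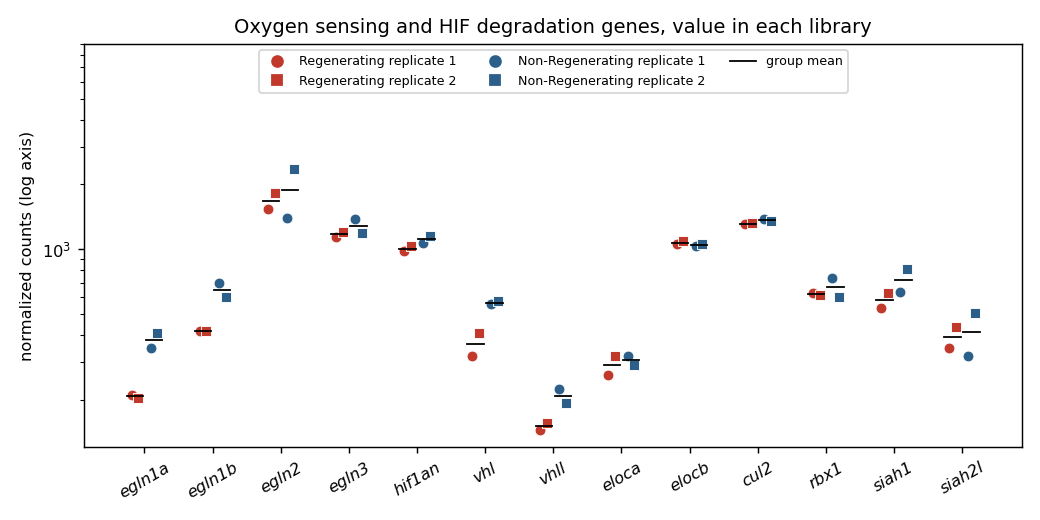
Normalized counts of the 13 tested oxygen sensing and degradation genes in each library on a log axis, with symbols as in the plot of the 9 genes. The red points lie below the blue points for egln1a, egln1b, vhl and vhll, and closer to them for cul2, hif1an and siah1, while elocb lies at nearly 1 level.

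Among the target genes, ca9 was the gene of the 9 with the greatest difference. It encodes a carbonic anhydrase, which in human cells sits on the cell surface, balances pH and is a widely used hypoxia marker. The gene (ENSDARG00000102300, chromosome 10, 6417356 to 6454386) read 366 and 114 in Regenerating compared with 28 and 22 in Non-Regenerating. Both Regenerating libraries were far above both Non-Regenerating ones, but differed 3.21-fold between themselves. The fitted level was 7.95-fold higher (interval 2.58 to 24.5), a log2 fold change of 2.99 (SE 0.635, unadjusted p = 0.00507, limma adjusted p = 0.197). Leaving out Regenerating replicate 1 gave 2.15, and leaving out Regenerating replicate 2 gave 3.83.

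The summed cardiomyocyte markers followed the same order of libraries, with a 2.66-fold difference between the Regenerating replicates and a 1.88-fold one between the Non-Regenerating replicates, where that of ca9 was 1.27-fold. The sarcomere gene ttn.2 read 8591 and 1884 against 137 and 144, whereas the heart muscle myosin gene myl7 read 1904 and 1639 against 1424 and 1208. The part of heart muscle transcripts in the ca9 value was not tested.

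The fitted differences of the remaining targets of the 9 were smaller. The gene ankrd37 (ENSDARG00000056376, chromosome 1, 17695426 to 17698773), an ankyrin repeat gene and HIF target in human cells, read 144 and 176 in Regenerating compared with 144 and 211 in Non-Regenerating. The lowest library of each group had the same value, and the log2 fold change was -0.13 (SE 0.322, interval -0.95 to 0.69, limma adjusted p = 0.922). Its span overlaps 1 gene of the other strand, si:dkey-256e7.8, and whether reads were counted by strand is not given in the sources used here, so its value is uncertain. The gene bnip3 (ENSDARG00000099961, chromosome 12, 41697664 to 41705910), whose protein directs mitochondria to autophagy, read 156 and 142 against 103 and 131. The Regenerating libraries were higher without overlap, though 142 and 131 lie close, and the log2 fold change was 0.35 (SE 0.301, interval -0.42 to 1.13, adjusted p = 0.710).

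The relatives of bnip3 pointed the other way by small amounts. The gene bnip3lb read 2936 and 3413 against 3216 and 3730, and bnip3la 456 and 542 against 491 and 629, both with overlap. In the mitophagy list, the genes for selective breakdown of mitochondria, 1 of 16 tested genes had an unadjusted p under 0.05, against 12.8% of all genes, and the median log2 fold change was 0.07. That gene was pink1, a kinase that senses damaged mitochondria, at 1068 and 1132 against 774 and 865 (log2 fold change 0.43, limma adjusted p = 0.364). Its partner, the ubiquitin ligase gene prkn, read 75 and 131 against 30 and 110, and the autophagy receptor gene optn 1086 and 1058 against 866 and 1037.

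The wider list of hypoxia targets was mixed. Of 46 genes found and 42 tested, 4 were higher and 1 was lower at an unadjusted p under 0.05, near the 7.62% and 5.19% of all genes. None passed adjustment over all genes, and the median log2 fold change was -0.06. Besides ca9, the higher genes were angptl4, tfa and pfkfb3, the last named after its values were seen. The gene angptl4, a secreted inhibitor of lipoprotein lipase, read 3047 and 2730 in Regenerating compared with 1496 and 1709 in Non-Regenerating (log2 fold change 0.85, SE 0.138, limma adjusted p = 0.164). The transferrin gene tfa, which carries iron, read 1441 and 2276 against 921 and 819. The gene pfkfb3, which makes an activator of glycolysis, read 2993 and 2259 against 1544 and 1708. The lower gene was ddit4, an inhibitor of mTOR signalling, at 118 and 178 against 307 and 347 (log2 fold change -1.17, SE 0.303, adjusted p = 0.241).

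**Figure D4:**
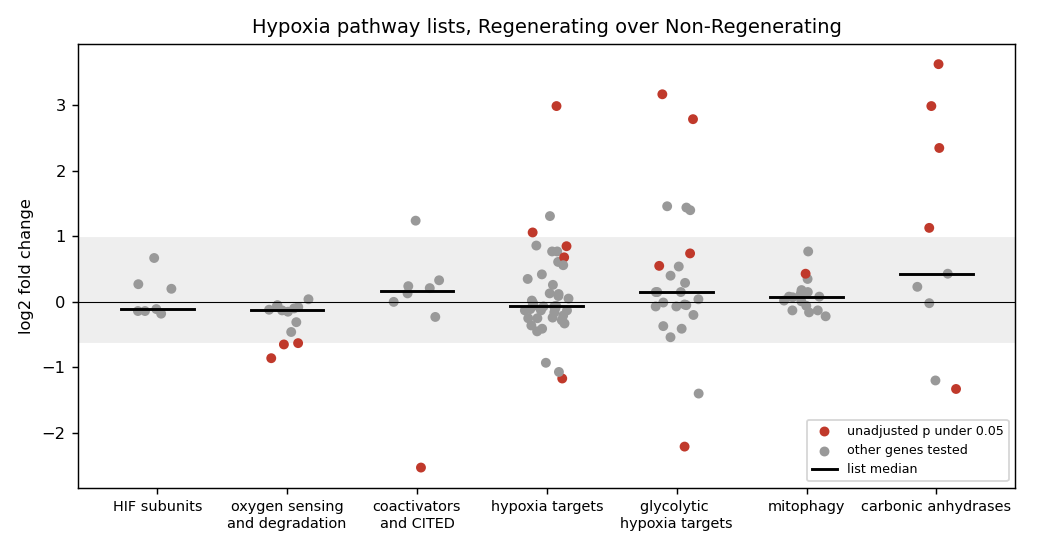
Log2 fold changes of every tested gene of the 7 pathway lists, with red points at an unadjusted p under 0.05, black bars at the list medians and a grey band from the 10th to the 90th percentile of all genes tested (-0.617 to 0.979). The medians lie between -0.13 and 0.43, and red points stand on both sides of 0 in the target, glycolysis and carbonic anhydrase lists, below 0 in the oxygen sensing (3 points) and coactivator (1 point) lists and above 0 in the mitophagy list (1 point).

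The glycolysis list holds enzymes, glucose transporters and the kinase gene pdk1, many of which are HIF targets. It included 4 higher and 1 lower of 25 tested at an unadjusted p under 0.05, against 7.62% and 5.19% of all genes. The median log2 fold change was 0.15. The phosphofructokinase gene pfkpa read 4268 and 4155 in Regenerating compared with 2809 and 2929 in Non-Regenerating, with replicates close together (log2 fold change 0.55, SE 0.102, limma adjusted p = 0.177). The glucose transporter gene slc2a1b, named after its values were seen, read 2563 and 1669 against 1456 and 1057. The aldolase gene aldoab read 2048 and 752 against 220 and 145, and the glucose phosphate isomerase gene gpib 1248 and 258 against 94 and 41. These last genes differed 2.72-fold and 4.84-fold between the Regenerating replicates, in the order of the cardiomyocyte marker sum, whose part in them was not tested. The lower gene was the enolase gene eno1b, also named after its values were seen, at 20 and 52 against 196 and 120. The partner genes of aldoab, gpib and eno1b differed much less between the groups. The gene aldoaa read 2866 and 2972 against 2986 and 3157, and gpia 3202 and 2885 against 3065 and 2434. The gene eno1a read 3156 and 2895 against 3046 and 2437. Over the list, 14 genes had a log2 fold change above 0 and 11 below.

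The carbonic anhydrase list was made by gene name and holds ca9. At an unadjusted p under 0.05, 4 of 9 tested were higher and 1 was lower, against 7.62% and 5.19% of all genes. The median log2 fold change of the list was 0.43. The gene ca2 read 340 and 310 in Regenerating compared with 149 and 146 in Non-Regenerating (log2 fold change 1.13, SE 0.237, limma adjusted p = 0.195). The gene ca6 read 699 and 113 against 17 and 28, with a 6.19-fold difference between the Regenerating replicates. The gene ca10a, named after its values were seen, read 119 and 391 against 27 and 64, with the replicates in the opposite order. The lower gene was ca8, at 66 and 55 against 137 and 171, and ca12, another hypoxia target in human cells, read 17 and 18 against 12 and 26.

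**Figure D5:**
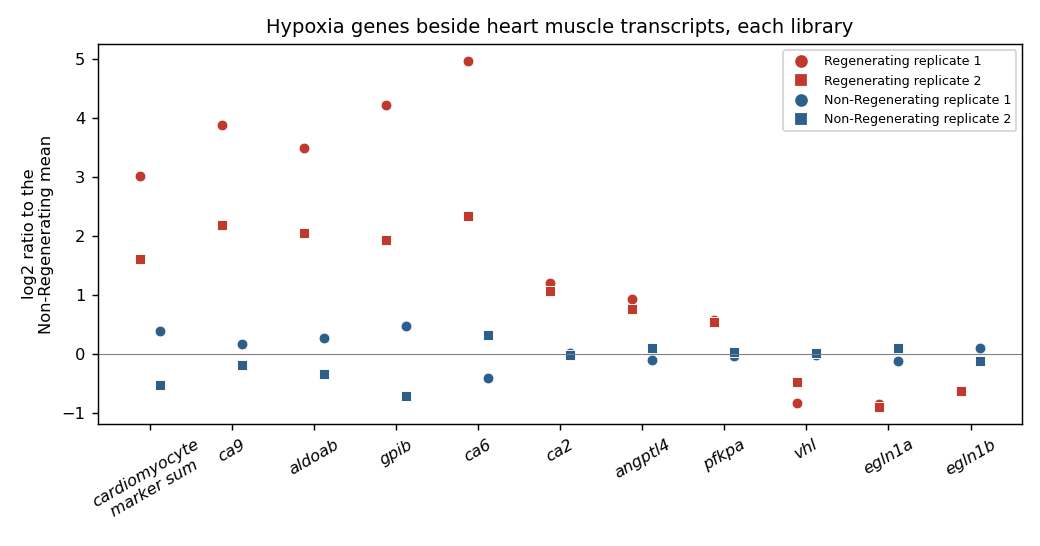
Log2 ratio of each library to the mean of the Non-Regenerating libraries, with symbols as in the plot of the 9 genes. Shown are the summed cardiomyocyte markers and 10 genes of the lists, of which ca2 and ca6 come only from the carbonic anhydrase list. In ca9, aldoab, gpib and ca6 the red circle stands well above the red square, as in the cardiomyocyte sum (63281 and 23809), while ca2, angptl4, pfkpa, egln1a and egln1b have red points close together.

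Coactivators and inhibitors of the HIF complex were the last group. Of 8 genes tested, 1 had an unadjusted p under 0.05, against 12.8% of all genes, and the median log2 fold change was 0.17. That gene was cited2, whose protein competes with HIF alpha for its coactivators, at 58 and 14 in Regenerating compared with 284 and 102 in Non-Regenerating (log2 fold change -2.53, SE 0.845, unadjusted p = 0.0299, limma adjusted p = 0.330). The groups did not overlap, and in both of them replicate 1 was well above replicate 2. Leaving out Regenerating replicate 2 gave -1.54 and leaving out Non-Regenerating replicate 1 gave -1.79, with unadjusted p of 0.157 and 0.179. Its relative cited4a read 432 and 245 against 213 and 88, in the opposite direction, and cited1 2021 and 2458 against 2719 and 2528. Over all pathway lists, carbonic anhydrases included, 104 genes outside the 9 were tested. At an unadjusted p under 0.05, 11 of them were higher and 6 lower, near the 7.62% and 5.19% of all genes. None passed adjustment, and the median log2 fold change was 0.02.

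The genes most like 4 of the 9 in pattern were found by the distance between log2 values centred on each gene, over the 4 libraries and 12868 other genes. For egln3 they were ttc26 (distance 0.0116) and sp1 (0.013), for ankrd37 NHLRC3 (0.0308) and rgcc (0.0333), for bnip3 map2k5 (0.0342) and hsdl2 (0.0362), and for epas1a phkg1a (0.0414) and pycard (0.0444). Within 0.1, a wider limit than these distances, lay 153 of the 12868 genes for egln3, 23 for ankrd37, 21 for bnip3 and 14 for epas1a. The named genes were thus not alone in lying near, over only 4 libraries.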

How the data were processed

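RNA of sorted coronary endothelial cells was sequenced in 4 libraries. A SMART-Seq v4 kit made full-length cDNA from roughly 5 ng of total RNA for each, per the labels' protocols. The build danRer11 and the tools featureCounts 2.0.4, DESeq2 1.36.0, STAR 2.7.11a, Trimmomatic 0.39 and Picard 3.1.1 are listed, without their roles, per the submitters' processing notes. The deposited table holds normalized counts in whole numbers, treated as a score since the authors had already scaled them. They were not fitted with a count model, and full-length libraries favour long genes, so levels are not compared between genes.

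Columns were assigned to groups by their headings. The 16928 genes that reached 10 in 2 or more libraries were fitted as log2(value + 1), which understates the folds of low genes, with limma 3.58.1 in R 4.3.3 (mean-variance trend, 2 residual and 3.08 prior degrees of freedom). Adjusted p-values are Benjamini-Hochberg over all these genes. The fit was tested on simulated data. Symbols with more than 1 row (elob, actc1a, hbba1) were left out of lists.

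The 9 genes and all lists were chosen with earlier results of these data known. The lists were HIF subunits, oxygen sensing and degradation, coactivators and CITED, hypoxia targets, glycolytic hypoxia targets, mitophagy and carbonic anhydrases, besides 7 marker lists. Genes named were the 9, their closest relatives, the gate genes, the 3 of each list with the smallest unadjusted p and the 2 most like each of egln3, ankrd37, bnip3 and epas1a. Most others are said to have been named after their values were seen. Single marker genes, the VHL partners cul2, eloca, elocb and rbx1, and the glycolysis genes aldoaa, gpia and eno1a were named outside these rules. Alternatives changed the filter, the pseudocount, the scaling or the variance trend, added a replicate block, or left out each library in turn.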

Additional observations from a re-analysis of the deposited data

How the results depend on the processing

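None of the 9 genes was called under any of the 11 alternatives, and 6 of them kept their direction in all. The other 3 turned only when a library was left out, with log2 fold changes from -0.56 to 0.28 in hif1aa, -0.29 to 0.68 in epas1a and -0.40 to 0.14 in ankrd37. So did egln2 (-0.49 to 0.26), bnip3la (-0.34 to 0.02), ca12 (-0.55 to 0.51), prkn (-0.15 to 1.69), vegfab (-0.09 to 1.64) and bhlhe41 (-0.50 to 1.62). The gene ca12 gave no value with a filter of 50. Over the whole table limma called 1 gene, 0 without the variance trend, and 0 without any 1 library, where an unadjusted p under 0.05 was reached by 1147 to 2101 genes instead of 2168. Leaving out a library gave 0 to 1 of the 9 lower at that p, and 7 to 11 higher and 2 to 6 lower of the other pathway genes. The 1 lower gene without Non-Regenerating replicate 2 was epas1b (0.0492), not vhl.

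Same-numbered libraries deviated together (correlation 0.339 across genes), but with only 2 pairs and no label tying the numbers to shared fish they were not taken as paired. With the replicate number as a block, 357 of the 16928 genes were called and 3485 had an unadjusted p under 0.05. At that p, 24 of the 104 tested pathway genes outside the 9 were higher and 12 lower. The 3485 genes were not split by direction, so these counts have no matching share over all genes. The 7.62% and 5.19% of the main fit do not apply to them. None of the 9 was called (ca9 limma adjusted p = 0.0573, vhl 0.141), while aldoab (0.0258), gpib (0.034), cited2 (0.0499) and ca10a (0.0488) were. The gate gene cxcr4a, whose reporter was used for the sort, was also called (0.0133). Of the distances to the genes most alike, computed under other scalings chosen after seeing the data, 6 of 8 exceeded 0.1 with quantile scaling. With 2 libraries per group, intervals as wide as that of epas1a do not show that levels are alike.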

Other observations

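Several hypoxia targets differed widely between replicates. These were chosen after their values were seen. The vessel growth factor genes vegfaa and vegfab read 1018 and 444, and 597 and 179, in Regenerating replicates 1 and 2, and 602 and 324, and 306 and 119, in the Non-Regenerating ones. In all 4 comparisons replicate 1 was the higher, by 1.86-fold to 3.34-fold. The oxidative folding gene ero1a read 1522 and 683 against 728 and 491, again with replicate 1 higher in both groups.

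The erythropoietin gene epoa, which encodes the hormone of red cell formation, read 1176 and 807 in Regenerating compared with 2948 and 1165 in Non-Regenerating (log2 fold change -0.93, limma adjusted p = 0.510), and was -0.26 without Non-Regenerating replicate 1. The collagen hydroxylase gene plod2 read 979 and 821 against 3377 and 1043 (-1.07, or -0.22 without that library). The circadian and hypoxia-responsive repressor gene bhlhe41 had the opposite order of replicates, at 512 and 1176 against 251 and 1097, as did epas1a.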
